A study of Rattus norvegicus with 6 samples.

Results

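Mitochondrial ribosomal protein genes were measured in the renal cortex of 6 rats, 3 given water and 3 given ethylenediamine dihydrochloride. They were the genes whose symbol, taken from the RefSeq accession of each array probe, starts with Mrpl or Mrps followed by a digit. The genes were selected on this contrast, ethylenediamine against water, read from the brightest probe of each gene. Its values are therefore given as a description and support nothing further. The rule found 67 genes, 42 Mrpl and 25 Mrps, of 15642 genes with a named probe. All 67 passed the filter on dim probes and were well above background on all 6 arrays, and they were part of the 11530 genes tested. The reference names 78 protein-coding genes by this rule, and the other 11, Mrpl28, Mrpl33, Mrpl39, Mrpl43, Mrps6, Mrps10 and Mrps28 among them, are not analysed here. It also lists 40 pseudogenes of the family, and whether a probe also detects one was not tested.

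The animals were male Sprague-Dawley rats of the Crl:CD(SD) stock, bought at 5 weeks of age. For 4 weeks, 1 group received water and the other 500 mg/kg/day of ethylenediamine dihydrochloride, the salt of a small diamine. Each rat was hybridised to its own 1-colour Agilent array. The comparison asks which transcripts of the cortex differ after treatment. Between 35691 and 40843 probes per array were well above background. All 5 proximal tubule markers examined (Slc34a1, Lrp2, Cubn, Slc5a2 and Slc22a6) were well above background on every array. The water arrays and ethylenediamine replicate 1 shared slide 1, and ethylenediamine replicates 2 and 3 were on slide 2, so the values within slide 1 rest on 1 treated rat.

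Mitochondria make the core subunits of the respiratory chain on their own ribosomes, from messages of the mitochondrial genome. The ribosomal RNAs come from that genome, whereas all the ribosomal proteins are encoded in the nucleus, made in the cytosol and imported. Mrpl genes mostly encode proteins of the large subunit, which forms the peptide bond, and Mrps genes mostly proteins of the small subunit, which reads the message. Some have a bacterial counterpart and others were acquired by mitochondria. The proximal tubule, the main cell type of the cortex, is rich in mitochondria because sodium-driven reabsorption uses much ATP.

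The promoters below are shown because they belong to the gene with the lowest fold change of the family (Mrpl18), to 1 of the higher genes (Mrpl57) and to the only member whose promoter holds all 3 motifs searched (Mrps18b). They run from 250 bases before to 50 bases after the RefSeq start, 5′ to 3′ on the gene's strand, in the GRCr8 build. They lie at chr1:50384702-50385001, chr15:36086207-36086506 and chr20:2842756-2843055, all on the plus strand. Capitals mark a motif match on either strand.
Mrpl18: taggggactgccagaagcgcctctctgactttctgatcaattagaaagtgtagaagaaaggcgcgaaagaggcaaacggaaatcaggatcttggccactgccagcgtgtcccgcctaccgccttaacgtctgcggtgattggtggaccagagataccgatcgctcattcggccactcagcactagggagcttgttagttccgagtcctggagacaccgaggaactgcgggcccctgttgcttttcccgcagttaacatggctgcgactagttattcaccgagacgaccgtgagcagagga
Mrpl57: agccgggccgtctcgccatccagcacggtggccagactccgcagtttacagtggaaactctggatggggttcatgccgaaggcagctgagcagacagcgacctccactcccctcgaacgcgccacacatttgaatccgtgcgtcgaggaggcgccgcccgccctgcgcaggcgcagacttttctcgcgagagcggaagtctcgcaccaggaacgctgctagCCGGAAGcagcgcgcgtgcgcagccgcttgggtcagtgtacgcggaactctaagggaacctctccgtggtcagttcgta
Mrps18b: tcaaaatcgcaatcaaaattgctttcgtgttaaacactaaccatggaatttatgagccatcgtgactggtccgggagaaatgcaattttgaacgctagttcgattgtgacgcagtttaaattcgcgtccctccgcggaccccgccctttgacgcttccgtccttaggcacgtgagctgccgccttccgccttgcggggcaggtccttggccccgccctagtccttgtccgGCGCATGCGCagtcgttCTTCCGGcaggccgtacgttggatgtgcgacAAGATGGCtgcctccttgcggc

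Levels below are log2 signal relative to the 75th percentile of the array, so 0 is that percentile, and differences are ethylenediamine minus water on this log2 scale. They are levels in bulk tissue, where fewer cells of a type and less RNA per cell cannot be told apart.

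The family as a whole lay close to no difference, and 1 gene stood apart from it. Of the 67 members, 46 had a positive and 21 a negative difference, against 48.8% positive among all genes tested. Scaling on the median shifts every gene by the same amount, whereas quantile scaling shifts genes by differing amounts. With arrays scaled on their medians 35 of 67 members were positive, against 40.3% of all genes, and with quantile scaling 40 members, against 46.1%. The median difference was 0.03, against -0.0036 over all genes. In 66 members the difference lay within 0.3 on either side of 0, as it did in 10251 of the 11530 genes. The remaining member was Mrpl18, at -0.72. The next lowest was Mrpl3 at -0.18 and the highest was Mrpl4 at 0.27.

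The 95% interval of the difference lay inside 0.5 on either side of 0 in 64 of 67 members, against 8427 of 11530 genes, and inside 1 in all 67, against 10708 genes. The exceptions at 0.5 were Mrpl18, Mrpl4 and Mrpl52. No member passed limma's test at an adjusted p of 0.05 with Benjamini-Hochberg adjustment over all genes, 0 of 67 against a background of 0% of the 11530 genes. At an unadjusted p under 0.05, 1194 of all genes (10.4%) passed. Among members, 2 were higher at that level (Mrps22 and Mrpl57), where the background was 5.39%, and 1 was lower (Mrpl18), where it was 4.97%.

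In 9 members every treated array lay above every water array (13.4% of the family, background 9.2%): Mrps22, Mrpl57, Mrpl12, Mrpl53, Mrpl54, Mrps18a, Mrpl58, Mrps34 and Mrps31. In 2 members, Mrpl18 and Mrps15, every treated array lay below every water array (2.99%, background 8.27%). Apart from Mrpl18, these 11 genes differed little in size, from -0.08 for Mrps15 to 0.15 for Mrps22. The 3 treated arrays lay above the water mean together in 26 members and below it together in 7, against 2513 and 2577 of all 11530 genes.

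**Figure D1:**
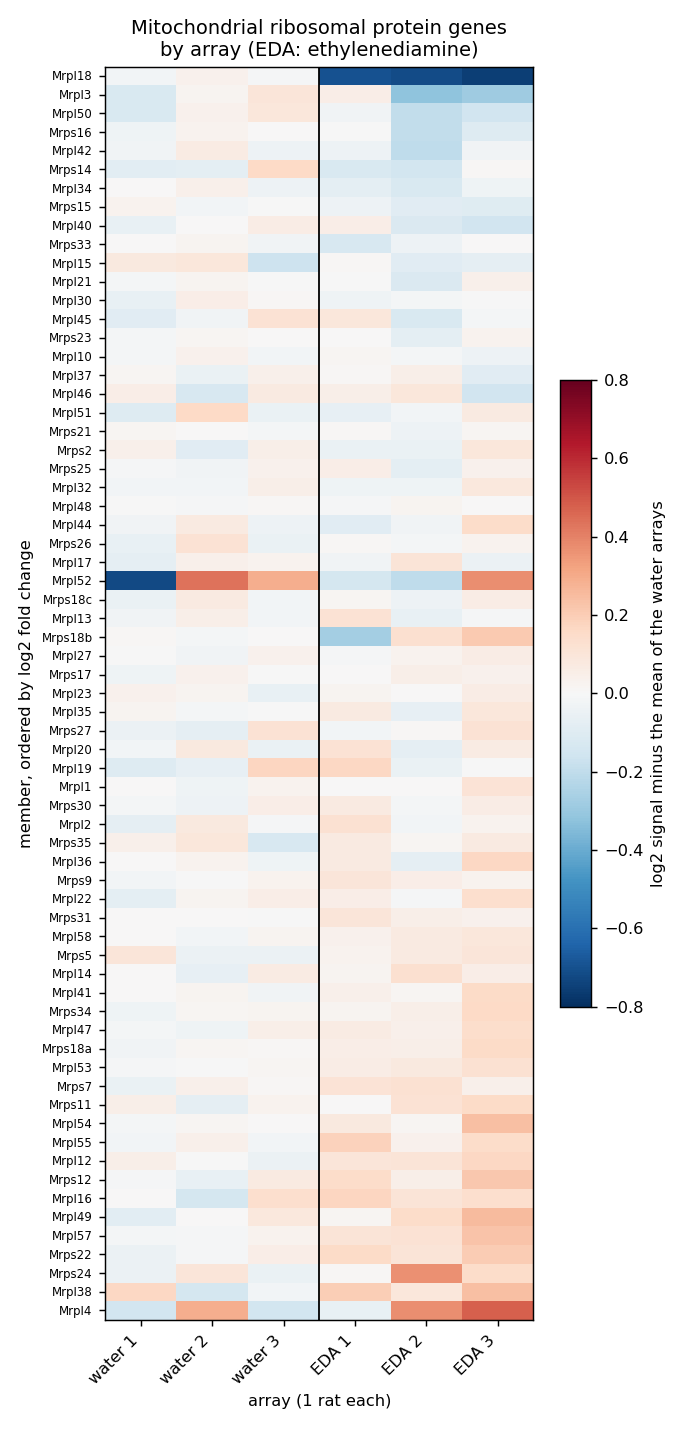
Each cell is the log2 signal of 1 member (vertical axis, ordered by fold change) on 1 array (horizontal axis, 1 rat each), minus the mean of the 3 water arrays of that gene. Mrpl18 at the top is low on all 3 ethylenediamine (EDA) arrays, between -0.70 and -0.75, while most other members stay near 0 and Mrpl52 varies among the water arrays themselves.

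Mrpl18 encodes a large-subunit protein whose bacterial counterpart binds the smallest ribosomal RNA, and in human cells a cytosolic form of it has been described in the response to heat. In replicate order, its brightest probe read 3.68, 3.73 and 3.69 in the water rats and 3.00, 2.98 and 2.95 in the ethylenediamine rats. The groups did not overlap, and the gap between them was many times the spread within either. The group means were 3.70 ± 0.03 and 2.98 ± 0.03 (SD, n = 3 each), a signal 1.65-fold lower with treatment. The difference was -0.72 ± 0.05 (SE), with a 95% interval from -0.85 to -0.60. By limma's unadjusted p (8.44e-06) it ranked 1 of 11530 genes, and its adjusted p over all genes was 0.0973, which missed the threshold. Over 23 other processing settings its adjusted p ran from 0.0132 to 0.47, and it passed in 1, where the fit lets the variance follow the intensity. Within slide 1 the difference was -0.70. It was the lowest member on each of the 3 treated arrays, at -0.70, -0.72 and -0.75 from its water mean.

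The other probe for Mrpl18, named by the same transcript, gave a much smaller difference. It read 3.33, 3.31 and 3.37 in the water arrays and 3.22, 3.22 and 3.20 in the ethylenediamine arrays. Here too every treated array was below every water array, but the difference was -0.13 ± 0.05 (SE), with an adjusted p over all probes of 0.469, and -0.12 within slide 1. Both probes thus placed the treated arrays lower, by amounts 0.595 apart. The choice between them was close: the mean over the 6 arrays was 3.34 for the probe chosen as brightest and 3.28 for the other, and normexp background correction with its own choice took the other, which gave -0.15 (adjusted p 0.431). With normexp and the first probe the difference was -0.72, with the mean of both probes -0.42. Which probe follows the gene's transcripts more closely was not tested, and the files used here give no isoform for either.

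A gap between probes of this size was unusual for the family. Of the 34 members with more than 1 kept probe, Mrpl18 alone had probes over 0.3 apart (2.94%), against 10.8% of the 5892 such genes. A gap at least as wide as that of Mrpl18 was found in 153 of those genes (2.6%), and in 8 of the 1738 genes (0.46%) whose dimmest kept probe was above the 75th percentile of the arrays. The median gap was 0.0577 in the family and 0.0959 over all genes. Of 46 further probes of members, 34 had the sign of the brightest probe and 12 the opposite sign, and their differences ran from -0.17 to 0.25. The opposite signs fell in 10 of the 34 members (29.4%), against 2036 of 5892 genes (34.6%), none of these members with a brightest-probe difference over 0.126 in size.

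**Figure D2:**
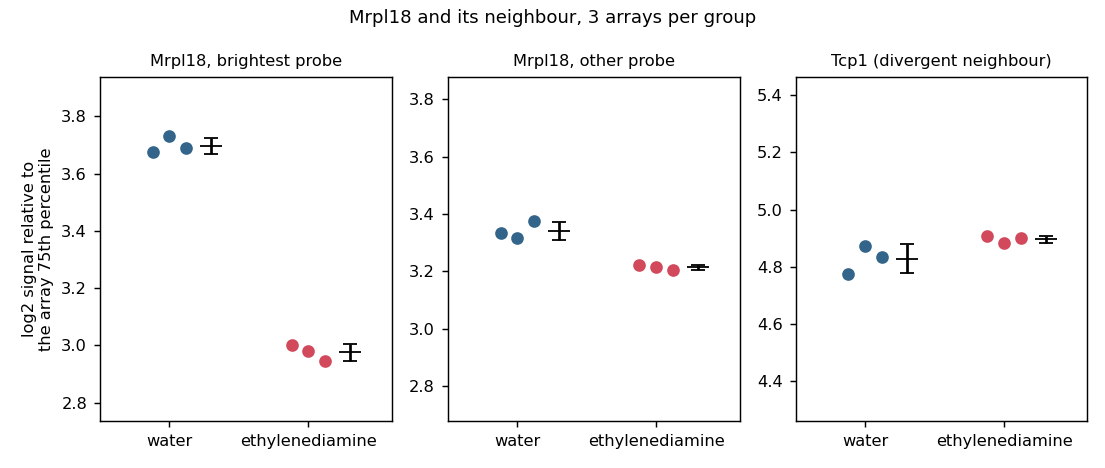
The panels plot log2 signal relative to the array's 75th percentile (vertical axes of equal length but different ranges) for both Mrpl18 probes and for Tcp1, with 1 point per array and the mean ± SD (n = 3) beside each group. The brightest Mrpl18 probe is separated by 0.72, the other by 0.13 in the same direction, and Tcp1 is slightly higher with treatment.

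Of the 30 listed large-subunit proteins with a bacterial counterpart, 25 were measured, Mrpl18 among them. The other 24 had 18 positive and 6 negative differences, at a median of 0.03. Mrpl12, the stalk protein that recruits translation factors, read 5.56, 5.51 and 5.46 in water and 5.61, 5.62 and 5.68 in ethylenediamine. The treated arrays were all higher but by little, 0.12 ± 0.05 (SE, adjusted p 0.506). Mrpl55 differed by 0.12 ± 0.06 and its other probe by 0.22, and Mrpl16 by 0.14 ± 0.08. On the brightest probe of both, water and treated arrays overlapped, whereas on the other Mrpl55 probe every treated array was above every water array.

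Mrpl4 and Mrpl3, which hold conserved positions near the peptide exit tunnel and the catalytic centre, had the extreme differences of this group after Mrpl18, and neither was stable between slides. Mrpl4 read 1.58, 2.02 and 1.58 in water and 1.67, 2.10 and 2.21 in ethylenediamine. Its difference was 0.27 ± 0.19 (SE), with an interval from -0.20 to 0.73, and -0.06 within slide 1. Mrpl3 read 0.88, 1.02 and 1.10 in water and 1.06, 0.68 and 0.72 in ethylenediamine. Only the slide 2 arrays were low, so the difference of -0.18 ± 0.12 became 0.06 within slide 1. Slide and treatment cannot be told apart on slide 2, which held no water array.

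Of the 21 listed large-subunit proteins without a bacterial counterpart, 19 were measured, 12 with a positive and 7 with a negative difference, at a median of 0.01. Mrpl57, a small protein of this kind, read 5.16, 5.16 and 5.20 in water and 5.28, 5.29 and 5.41 in ethylenediamine. All treated arrays were higher, by 0.15 ± 0.06 (SE, adjusted p 0.475), by 0.14 with its other probe and by 0.10 within slide 1. Mrpl53 differed by 0.09 ± 0.05 without overlap. Mrpl38 (0.18 ± 0.09) and Mrpl49 (0.14 ± 0.08) overlapped between groups, and Mrpl49 differed by only 0.02 within slide 1. Mrpl50 was at -0.13 ± 0.08, and at -0.03 within slide 1 and -0.17 from the slide 2 arrays alone against water. Its other probe, at 0.03 ± 0.26, was far dimmer and imprecise, reading -4.68 to -3.73 against 1.85 to 2.14 for the brightest. Mrpl58, a peptidyl-tRNA hydrolase that became part of the ribosome, was higher without overlap at 0.06.

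Small-subunit members without a bacterial counterpart were all measured, 9 of 9, with 7 positive and 2 negative differences and a median of 0.03. Mrps22, whose inherited mutations in people impair mitochondrial translation, read 0.37, 0.41 and 0.47 in water and 0.57, 0.52 and 0.62 in ethylenediamine. The groups did not overlap, and the difference was 0.15 ± 0.06 (SE, adjusted p 0.46) and 0.15 from the slide 2 arrays alone against water.

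Of the small-subunit members with a bacterial counterpart, 14 of 17 were measured, 9 with a positive and 5 with a negative difference, at a median of 0.02. Mrps12, which lies at the decoding site, differed by 0.14 ± 0.07 (other probe 0.21), Mrps7 by 0.09 ± 0.06 and Mrps24 by 0.17 ± 0.11. All 3 overlapped between groups, and Mrps24 differed by 0.01 within slide 1. Mrps16 was lower by a similar amount on each of its probes, at -0.10, -0.09 and -0.07, with overlap on the brightest. On that probe the difference was -0.005 within slide 1 and -0.15 from the slide 2 arrays alone against water. Mrps15 read 1.96, 1.91 and 1.93 in water and 1.90, 1.85 and 1.84 in ethylenediamine, a narrow separation of -0.08 ± 0.05.

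**Figure D3:**
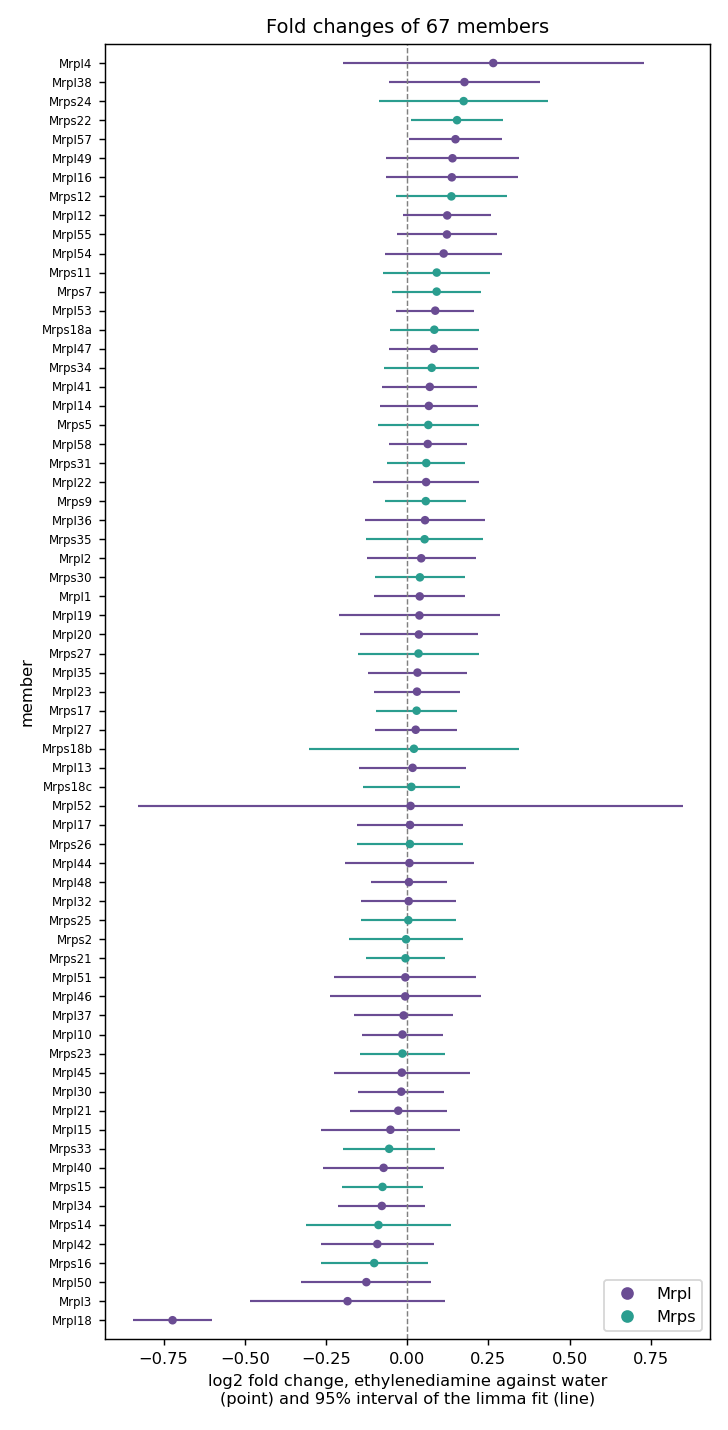
Points are the log2 fold change of each of the 67 members (ethylenediamine against water, horizontal axis), coloured by Mrpl or Mrps symbol, and lines are the 95% interval of the limma fit. Intervals of 64 members lie within 0.5 of 0, Mrpl18 lies apart at -0.72, and Mrpl52 and Mrpl4 have the widest intervals.

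Compared with all genes, the family varied little between animals. Genes were not matched for signal level here, so the part of brightness in this contrast was not tested. The median residual SD, the spread of arrays within their groups, was 0.0622 in the family and 0.115 over all genes, and it was under 0.1 in 53 of 67 members (79.1%) against 43% of genes. The median was lower still in the comparison lists, 0.0454 over 87 cytosolic ribosomal protein genes and 0.0472 over 75 respiratory chain and ATP synthase genes. Among members, Mrpl48 had the lowest residual SD, 0.0133. Mrpl52 had the highest, 0.499, with 0.73, 1.89 and 1.74 in the water arrays and 1.32, 1.25 and 1.83 in the treated arrays. Its other probe was also lowest in water replicate 1, at 0.52 against 1.01 and 1.31. Mrps18b was low in ethylenediamine replicate 1 alone, at 0.86, against 1.12 to 1.34 in the other arrays. The median over the members, relative to each gene's water mean, was -0.0169, 0.0146 and 0.009 in the water arrays and 0.0207, 0.0019 and 0.0614 in the treated arrays. The treated values thus overlapped the water values, and the highest came from 1 array, ethylenediamine replicate 3, where 50 of 67 members were above their water mean, against 46 and 34 in replicates 1 and 2.

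The other genes of mitochondrial translation showed no common direction. Over the 5 lists together, 70 of 81 genes were measured, 32 with a positive and 38 with a negative difference, at a median of -0.01. None passed the adjusted threshold. At an unadjusted p under 0.05, 1 was higher (1.43%, background 5.39%) and 4 were lower (5.71%, background 4.97%). Without overlap between groups, 2 were higher (2.86%, background 9.2%) and 7 lower (10%, background 8.27%).

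Ptcd3, a ribosomal protein of the small subunit that has no Mrps symbol, read 5.87, 5.78 and 5.49 in water and 5.47, 5.38 and 5.21 in ethylenediamine. It was lower without overlap, by a difference of -0.36 ± 0.12 (SE, adjusted p 0.424), and by -0.24 within slide 1. The other 4 such proteins, Dap3, Chchd1, Aurkaip1 and Gadd45gip1, had differences from 0.01 to 0.15, all with overlap.

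Among 12 of 14 translation factors, 6 were positive and 6 negative. Guf1, a ribosome-binding GTPase, read 2.18, 2.25 and 2.16 in water and 2.04, 1.89 and 1.97 in ethylenediamine, a difference of -0.23 ± 0.06 (adjusted p 0.355) without overlap. The initiation factor Mtif3 was also lower without overlap, at -0.15, whereas the elongation factor Tufm overlapped at 0.15. Of 16 of 20 aminoacyl-tRNA synthetases and related enzymes, which charge mitochondrial tRNAs, 9 were positive and 7 negative. Yars2, for tyrosine, read -0.50, -0.51 and -0.51 in water and -0.35, -0.34 and -0.24 in ethylenediamine, higher by 0.20 ± 0.05 (adjusted p 0.355). Pars2, for proline, overlapped at 0.25 ± 0.10.

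Assembly factors and rRNA-modifying enzymes (20 of 24 measured) had 9 positive and 11 negative differences, with Malsu1 at 0.15 and Rpusd4 at 0.09. Genes that maintain and express mitochondrial DNA (17 of 18 measured) had 4 positive and 13 negative differences at a median of -0.03, and 3 of them (17.6%, background 8.27%) were lower without overlap. The median of this list was -0.01 within slide 1 and -0.07 from the slide 2 arrays alone against water. Prorp, the nuclease subunit that trims the start of mitochondrial tRNAs, was at -0.24 ± 0.08 (adjusted p 0.407), and Tefm, an elongation factor of mitochondrial transcription, at -0.16 ± 0.06 (adjusted p 0.466). For scale, the median was 0.02 over 87 cytosolic ribosomal protein genes (54 positive) and -0.03 over 75 respiratory chain and ATP synthase genes (19 positive). Whether the mitoribosomal genes differ from either list was not tested.

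**Figure D4:**
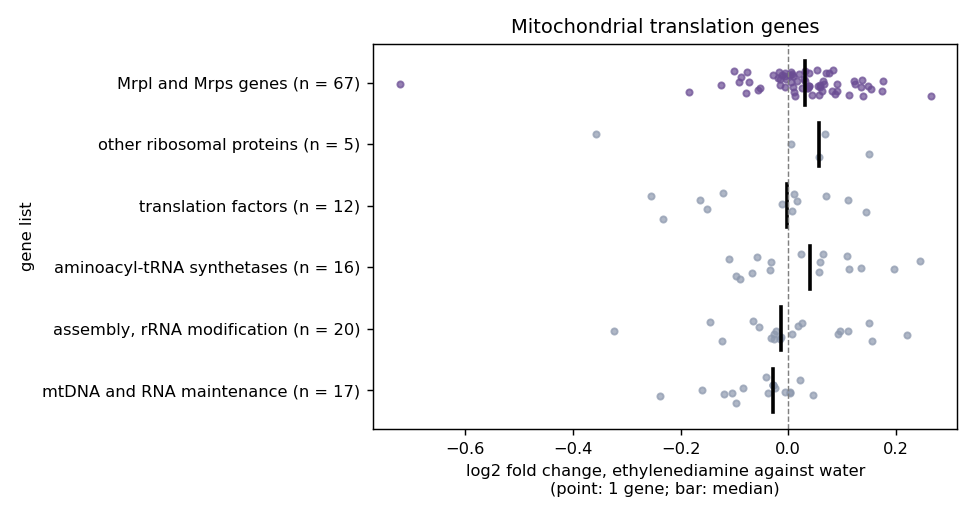
Each point is the log2 fold change of 1 gene (ethylenediamine against water, horizontal axis), with the median as a bar. The vertical axis gives the Mrpl and Mrps family and the 5 lists of mitochondrial translation and mitochondrial DNA and RNA maintenance genes. All 6 medians lie between -0.03 and 0.06, and Mrpl18 at -0.72 is the lowest point plotted.

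Promoters were found for 55 of the 67 members in the RefSeq table, 57 in all because Mrpl14 and Mrps21 have 2 each. They were searched on both strands for GCGCATGCG (nuclear respiratory factor 1, a regulator of nuclear genes for mitochondria), CCGGAAG (GABPA and other ETS factors) and AAGATGGC (YY1). The first is close to its own reverse complement and can match both strands at neighbouring positions, as in Mrps18b. The end of the ETS motif and the start of the YY1 motif share 3 letters, so that matches can overlap, although none did in the members that held both. At least 1 was present in 30 of 57 members' promoters (52.6%), against 22.1% of the 9920 promoters of genes tested and 12.5% of all 33469 promoters. The YY1 motif was in 13 (22.8%), against 4.96% of genes tested, the ETS motif in 19 (33.3%), against 16.4%, and the nuclear respiratory factor motif in 5 (8.77%), against 2.9%. These shares describe letters in these windows, not binding.

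The Mrpl18 promoter printed above holds none of the 3 motifs, as is true of 27 of the 57. The median difference was 0.02 in members with and 0.02 in members without the YY1 motif, 0.03 and 0.01 with and without the ETS motif, and 0.01 and 0.03 with and without the nuclear respiratory factor motif. These medians are over promoters, members in each class went both ways except the 5 with the nuclear respiratory factor motif, which ran from 0.0046 to 0.0583, and the classes were not tested against each other.

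Many members start close to a gene on the opposite strand. A start within 1000 bases was found for 19 of 55 members (34.5%), against 1674 of the 9430 genes tested that have a promoter in the table (17.8%). Of these 19 neighbours 13 were measured, 7 with a positive and 6 with a negative difference from -0.09 to 0.11. By limma's unadjusted p, 0 of the 13 were under 0.05, against 10.4% of all genes. The groups did not overlap in 1 of the 13, where the background was 9.2% higher and 8.27% lower. Mrpl46 and Mrps11, 234 bases apart, are each other's neighbour and differed by -0.01 and 0.09. The start of Mrpl18 lies 425 bases from that of Tcp1, a subunit of the cytosolic chaperonin. Tcp1 read 4.77, 4.87 and 4.83 in water and 4.91, 4.88 and 4.90 in ethylenediamine. It was higher without overlap but by only 0.07 ± 0.05, with an interval from -0.06 to 0.20, opposite in sign to both Mrpl18 probes. Fau, which encodes a cytosolic ribosomal protein 186 bases from Mrpl49, differed by 0.02.

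Markers of some cell types differed between the groups on the same arrays, though no marker passed the adjusted threshold. Summed linear signals overlapped between groups for podocyte, thick ascending limb, leukocyte, red blood cell, renal inner medulla, adipose tissue and adrenal gland markers. Adipose tissue and adrenal gland had 1 measured marker each. The 3 smooth muscle markers (Acta2, Tagln and Myh11) were all higher, and their summed linear signal, in units of the array's 75th percentile, ran from 1.87 to 2.47 in water and from 3.36 to 3.72 in ethylenediamine. The 2 collecting duct markers measured were both lower, with sums of 204 to 243 in water and 139.9 to 165 in ethylenediamine. The sum of the 5 proximal tubule markers was 914 to 937 in water and 896 to 899.8 in ethylenediamine, close but without overlap. Lrp2 (-0.19) and Slc5a2 (-0.14) were lower, and Slc34a1, Cubn and Slc22a6 lay between 0.00 and 0.02. Both distal convoluted tubule markers were lower, Calb1 by a difference of -0.89 and Slc12a3 of -0.35, with sums of 24.0 to 29.6 in water and 16.5 to 24.4 in ethylenediamine, which overlapped. The part of these cell types in the Mrpl18 difference was not tested.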

How the data were processed

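Total RNA was measured on 1-colour Agilent arrays. The scanner files, as deposited, give the linear intensity of each spot after background subtraction by Agilent's Feature Extraction software (10.7.1.1 in the file headers, 10.7 in the submitters' processing notes), on a grid built on rn4. The deposited value table holds scaled intensity and served as an alternative.

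Control spots (1439) and 22 probes with an outlier flag were left out. Each intensity was taken as log2 minus the array's 75th percentile. Kept probes (37822) had signal well above background on every array of 1 or both groups, and the brightest stood for its gene (11530 genes). Symbols came through RefSeq accessions (GRCr8, names and promoters only); 33321 of 61515 probes had no symbol. limma 3.58.1 (R 4.3.3; lmFit and eBayes) compared the 2 groups, with Benjamini-Hochberg adjustment over all genes, and was checked on simulated data. The number of arrays limits the precision. Replicates are separate animals per the labels. The members, lists and tests were chosen with earlier results of these data known. Named genes were the 12 members with the smallest p, the 4 highest and 4 lowest, Mrpl18 and Mrpl12, 2 genes per list by p, and neighbours of named members; Mrps15, Mrpl52, Mrps18b, Mrpl48 and others named were chosen after their values were seen. Because the scanner files used here hold median signals, normexp (offset 50) used the median signal and median background.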

Additional observations from a re-analysis of the deposited data

How the results depend on the processing

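The family median of 0.03 stayed within 0.0246 (the pooled SD of the array medians within groups) of its value in 22 of 23 alternatives and was 0.0018 with median scaling, which moved the median of all genes to -0.0321. The count of genes called was 0 higher and 0 lower, with 1194 genes at an unadjusted p under 0.05. With every probe tested alone, 4 probes were called higher, and Abcb1b was the only gene symbol among them. The count of genes became 10 higher with the slide as a fixed block and 1 lower with an intensity trend (Mrpl18). It was 1 higher with the second brightest probe, an alternative chosen after seeing the data. No count is given within slide 1, where 1 rat was treated. Leaving out 1 array at a time gave 0 to 1 higher: without water replicate 2 and without ethylenediamine replicate 1 it was 1. Apart from Mrpl18 under the intensity trend, no member was called. With the replicate number as a block, 0 genes were called and Mrpl18 had an adjusted p of 0.368. The deviations of same-numbered rats correlated at -0.003, 0.0224 and -0.008, so no shared deviation was seen. With 3 arrays per group, these values cannot show whether the numbers pair the rats.

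Of 16 named members in 23 alternatives (368 values), 5 values changed sign. Mrpl4 became -0.0597 and Mrpl3 0.0551 with the slide as a fixed block and within slide 1. Mrpl50 became 0.0291 with the second brightest probe, which is far dimmer and imprecise. Mrpl18 ran from -0.75 to -0.13 and was first by p in 9 alternatives; its values near -0.13 came with its other probe. Leaving out 1 array gave -0.74 to -0.71.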
